A study of Rattus norvegicus with 24 samples.

Results

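B lymphocyte genes were followed here in colonic epithelial cells of rats that were born normally or growth-retarded and then ate chow or a high-fat diet. The members were chosen by gene symbol, as every probe of the array's platform annotation that carries the symbol Cd79b, Cd79a, Blnk or Cd37. Of these 4 genes, 3 (Cd79b, Blnk and Cd37) have a probe, 1 each, on an array of 22523 probes, of which 13793 carry a single symbol. No probe carries the symbol Cd79a, so its expression was not analysed here. The members were proposed with results of these arrays in view, and which comparison prompted the choice is not recorded. The differences, standard errors (SE) and p-values of the members below therefore describe the fit over all probes and are no independent evidence that these genes changed.

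Colonic cells of Sprague Dawley rats aged 8 months were measured on Illumina arrays in 4 groups: growth-retarded rats (R, born with intra-uterine growth retardation, IUGR) on a high-fat diet (RHFD), growth-retarded rats on chow (normal diet, RND), control-born rats (C) on a high-fat diet (CHFD) and control-born rats on chow (CND). Cells were loosened from proximal and distal colon with EGTA and EDTA and shaken free by vortexing, with no sort or gate named in the labels. The labels do not say how the growth retardation was produced or which sex was used. The 24 arrays, 6 per group, carry 20 title numbers, taken as samples: 3 RHFD, 6 RND, 5 CHFD and 6 CND, since 4 numbers (RHFD 21B, 25B and 3A, and CHFD 10B) stand on 2 arrays each. The labels do not say that each number is a separate animal, so p-values measure the spread between these samples, which may in part be technical. Each of the 2 chips holds 3 arrays of every group.

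A B lymphocyte reads antigen through its receptor, a membrane immunoglobulin held by the signalling pair that Cd79a and Cd79b encode. When antigen binds, the kinase Syk is recruited to that pair and phosphorylates the adaptor that Blnk encodes, which brings the kinase Btk and the phospholipase Plcg2 together and so starts calcium release. Cd37 encodes a tetraspanin, a membrane protein that organises other surface proteins, abundant on mature B cells and present on other leukocytes. Resting B cells of the colon sit in lymphoid follicles under the epithelium, and antibody-secreting plasma cells lie in the lamina propria.

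On the GRCr8 assembly, RefSeq places Blnk at chr1:249703064-249770533, Cd37 at chr1:104855622-104861111 and Cd79b at chr10:91739134-91742312. The Blnk probe stands for NM_001025767, the Cd37 probe for NM_017124 and the Cd79b probe for NM_133533. Where in each transcript the probes lie was not analysed here. The promoter table used here gives RefSeq sequence for Blnk, Cd37 and Cd79a. Blnk, the member detected on every array, is shown because its 250 bases before the start hold the octamer, the motif that POU-domain factors such as Oct-2 (Pou2f2) bind in immunoglobulin promoters. The sequence is the minus strand of GRCr8, chr1:249770534-249770783, with the octamer in capitals.
Blnk upstream: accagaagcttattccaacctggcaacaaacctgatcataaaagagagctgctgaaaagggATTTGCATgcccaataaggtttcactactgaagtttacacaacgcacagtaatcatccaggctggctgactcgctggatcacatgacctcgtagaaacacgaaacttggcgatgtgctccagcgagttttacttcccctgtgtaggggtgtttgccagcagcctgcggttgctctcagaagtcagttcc
The octamer ATTTGCAT, searched with its reverse complement ATGCAAAT, begins 189 bases before the Blnk start, and 412 of 27457 promoter windows of the same length (1.5%) hold it. The other motifs searched, named for B lineage factors, were CCCNNGGG (EBF core, in 3021 of 27457 windows), CAGGTG or CACCTG (E box of the E2A kind, 15.6%) and CAGCTG (E box, 11.9%). None of them was found in the Blnk or the Cd37 window on either strand. The Cd79a window holds 1 match to the E box of the E2A kind, 155 bases before the start, and none to the octamer or to the other motifs. A match is a description of letters, and no binding was measured.

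Before the group values, the label B lymphocyte was set against the defining markers of that cell type. Detection means a detection p-value under 0.05 against the negative controls of an array. Blnk was detected on 24 of 24 arrays, Cd37 on 22 and Cd79b on 18. Of 18 further B cell identity genes on the array, 7 were detected on 0 arrays, among them Pax5 (the factor that fixes B cell identity), Cd22 (an inhibitory co-receptor) and Cxcr5 (the follicle-homing receptor), and 13 were detected on fewer than 6 arrays. Ms4a1, which encodes CD20, was detected on 6 arrays, of which 1 was RHFD, 3 were RND, 2 were CHFD and 0 were CND. Only Cd83 and Swap70, which other cells also express, were detected on all 24 arrays among these identity genes. Of 9 plasma cell genes, 4 were detected on 0 arrays (Irf4, Tnfrsf17, Derl3 and Ccr10), Mzb1 was detected on 1, and the 3 on all arrays (Sdc1, Xbp1 and Creld2) are also made by epithelium. In wider leukocyte lists, 6 of 18 pan-leukocyte genes and 4 of 19 T and NK genes were also detected on fewer than 6 arrays. A gene not detected here may still be expressed below background. The data therefore bear out detection of Blnk, Cd37 and Cd79b and do not show a full B cell programme. These 3 genes are called by their own names from here on.

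**Figure D1:**
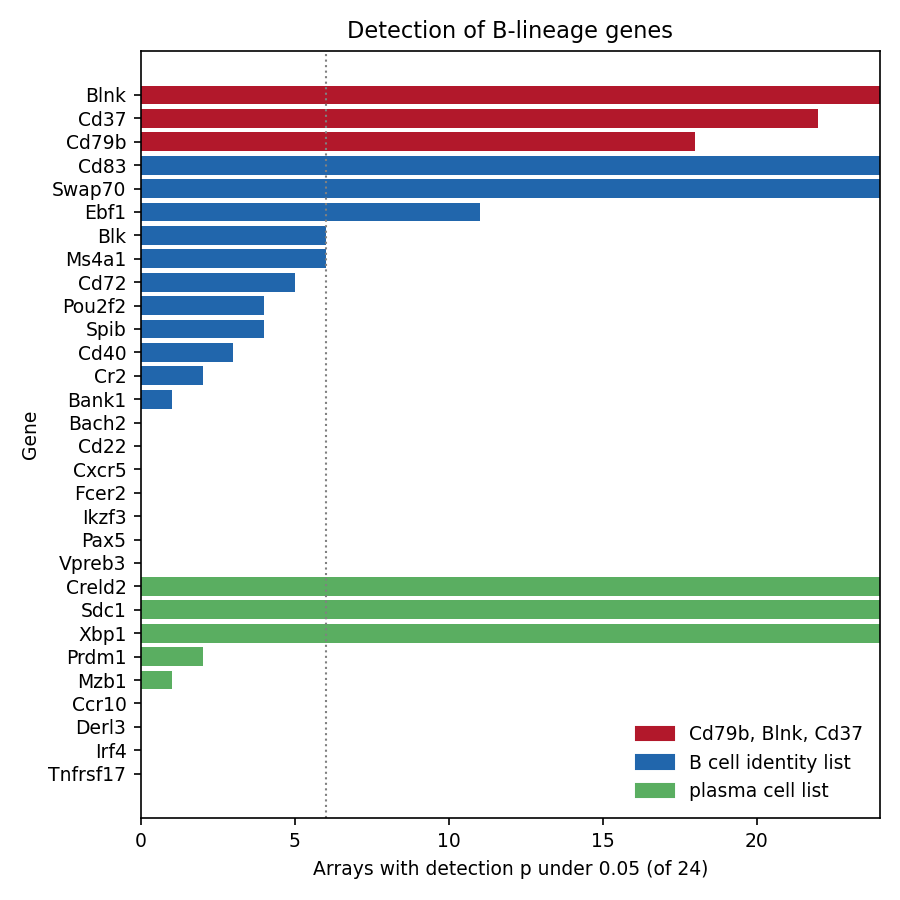
Number of arrays, of 24, on which each gene was detected (horizontal axis), for Blnk, Cd37 and Cd79b, the B cell identity list and the plasma cell list; the dotted line marks the 6 arrays required for testing. Blnk reaches 24, Cd37 22 and Cd79b 18, while 7 identity genes and 4 plasma cell genes stand at 0.

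Raw probe signals ran from 139 to 982 for Blnk, from 99 to 171 for Cd37 and from 87 to 154 for Cd79b, while the lowest detected signal of an array was 98 to 117. Cd37 and Cd79b were therefore read close to background, where the size of a difference depends on how background is handled. Levels below are log2 intensities after background correction and quantile normalization (neqc), averaged per sample. In these bulk samples, fewer cells of a type and less RNA per cell cannot be told apart.

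Cd79b, the signalling chain of the receptor, was highest in RND and CHFD and lowest in RHFD and CND. The 3 RHFD samples had log2 levels of 4.70 (21B), 4.89 (25B) and 4.95 (3A), with detection on 4 of 6 arrays. RND ran from 4.80 through a median of 5.45 to 6.51, with detection on 6 of 6 arrays. The 5 CHFD samples had 6.10 (10B), 5.82 (22B), 5.46 (28B), 5.33 (8B) and 4.93 (4A), and all 6 arrays detected it. CND ran from 4.43 through 4.70 to 4.99, with detection on 2 of 6 arrays. Group means were 4.84 ± 0.13 in RHFD (SD, n = 3), 5.53 ± 0.59 in RND (n = 6), 5.52 ± 0.45 in CHFD (n = 5) and 4.72 ± 0.19 in CND (n = 6). The RHFD and CND ranges overlap, and RND and CHFD overlap along most of their length, so the order within each of those pairs is not settled by the spread.

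Blnk, the adaptor downstream of the receptor, stood lower in CND than in the other groups. RHFD samples had log2 levels of 7.50 (21B), 8.57 (25B) and 8.86 (3A). RND ran from 8.18 through a median of 8.43 to 8.97. CHFD samples had 7.75 (10B), 9.19 (22B), 8.64 (28B), 7.27 (8B) and 7.99 (4A). CND ran from 6.32 (38B) through 7.51 to 8.13. The means were 8.31 ± 0.72 in RHFD (SD, n = 3), 8.50 ± 0.33 in RND (n = 6), 8.17 ± 0.75 in CHFD (n = 5) and 7.39 ± 0.68 in CND (n = 6). The RND samples lie within a narrow band above every CND sample, while RHFD and CHFD each span more than 1 log2 unit. RHFD 21B and CHFD 10B, 8B and 4A lie within the CND range, and CHFD 22B lies above all RND samples. On the 4 samples hybridised to both chips, Blnk read 0.27 to 0.75 higher on chip 2, and chip is a term of the fit.

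Cd37 was higher on the high-fat diet than on chow in control-born rats. RHFD samples had log2 levels of 5.88 (21B), 6.25 (25B) and 5.83 (3A). RND ran from 4.97 through a median of 5.41 to 6.41 (17B). CHFD samples had 5.67 (10B), 5.88 (22B), 5.48 (28B), 6.67 (8B) and 5.73 (4A). CND ran from 4.42 through 4.93 to 5.16, with detection on 4 of 6 arrays, while every array of the other groups detected it. The means were 5.99 ± 0.23 in RHFD (SD, n = 3), 5.50 ± 0.48 in RND (n = 6), 5.89 ± 0.46 in CHFD (n = 5) and 4.85 ± 0.30 in CND (n = 6). The 3 RHFD samples lie inside the CHFD range, and 1 RND sample, 17B, lies above all RHFD samples.

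**Figure D2:**
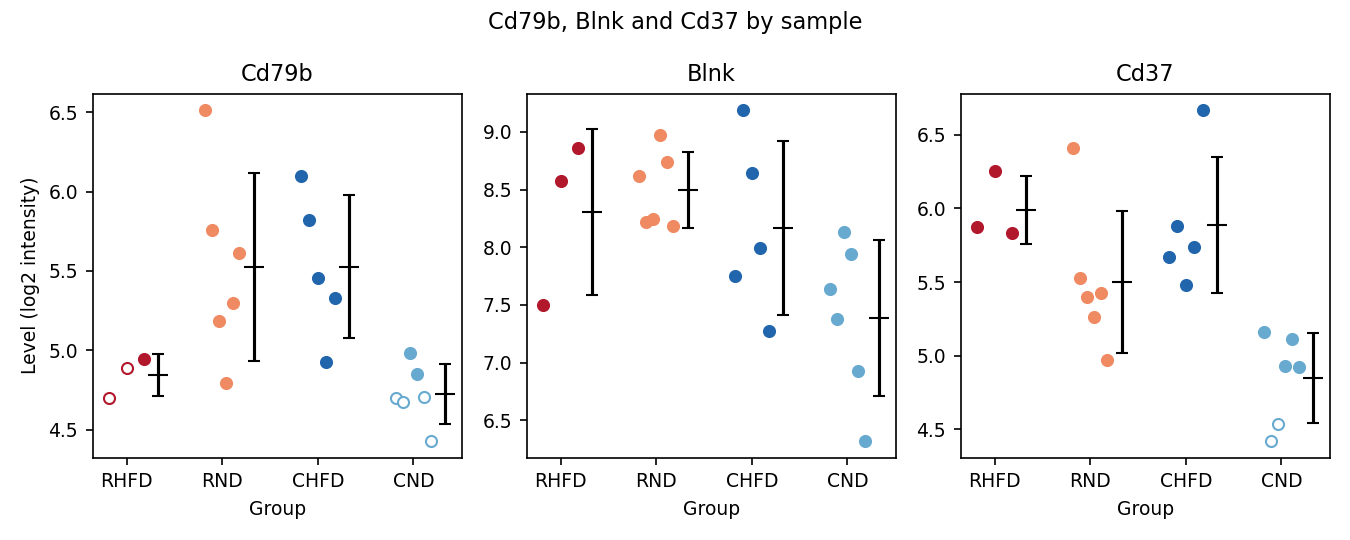
Log2 level (vertical axis) of Cd79b, Blnk and Cd37 in each sample, by group from left to right RHFD, RND, CHFD and CND; open points were not detected on all of their arrays, and the bar beside each group is its mean and SD (n = 3, 6, 5 and 6). All CHFD samples lie above all CND samples for Cd37, and all RND samples lie above all CND samples for Blnk, while Cd79b is low in RHFD and CND.

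The effect of the high-fat diet in control-born rats was the comparison CHFD over CND. Cd37 passed the threshold, an adjusted p under 0.05 over the 10193 probes tested, with a log2 difference of 1.04 (SE 0.22, limma adjusted p = 0.0142), or 2.05-fold. Its 95% interval on the log2 scale was 0.58 to 1.49. All 5 CHFD samples stood above all CND samples for Cd37, and 1.21% of tested probes showed such a separation upward. Cd79b differed by 0.81 (SE 0.25) at an unadjusted p of 0.00285 and an adjusted p of 0.108 (limma), with 4 of 5 CHFD samples above all CND samples. Blnk differed by 0.77 (SE 0.34, adjusted p = 0.394, limma), with 2 of 5 CHFD samples above all CND samples. So 1 of 3 genes passed the threshold, where 1.3% of all tested probes did, and all 3 had an unadjusted p under 0.05, where 10.8% did; these shares are given beside the count, and nothing is read from them because the genes were proposed from these arrays. The median log2 difference was 0.81 over the 3 genes and 0.00 over all tested probes.

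The Cd37 call rested on CHFD 8B, the sample with the highest Cd37 level of its group: without it the log2 difference was 0.84 with an adjusted p of 0.0589 (limma). CHFD 8B also had the highest T and NK marker mean of its group, 8.42 against 6.31 to 6.80 in the other CHFD samples. Without background correction the Cd37 difference was 0.39 (adjusted p = 0.0502), and on chip 1 and chip 2 alone it was 1.20 and 0.81 (adjusted p = 0.108 and 0.242, with fewer samples). Cd79b passed the threshold when RND 17B was left out (0.81, adjusted p = 0.0462), was 0.86 on chip 1 and 0.93 on chip 2, and was 0.28 without background correction. Blnk was 0.07 on chip 1 and 1.35 on chip 2, and the CND samples carry the letter B in their titles on chip 2 and the letter A on chip 1, so a chip difference in that group is also a letter difference. CHFD 10B stands on both chips, so the chip 1 and chip 2 values share that sample.

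The effect of the high-fat diet in growth-retarded rats was the comparison RHFD over RND, and 0 of 3 genes passed the threshold in it, against 0.883% of all tested probes. Cd79b stood at -0.68 (SE 0.28), with an unadjusted p of 0.022 and an adjusted p of 0.385 (limma), and 1 of 3 RHFD samples lay below all RND samples. At an unadjusted p under 0.05 it was the only one of the 3 genes, where 9.56% of tested probes reached that level. Cd37 stood at 0.49 (SE 0.25, adjusted p = 0.549) and Blnk at -0.19 (SE 0.39, adjusted p = 0.935). The 95% intervals of the log2 differences were -1.26 to -0.11 for Cd79b, -0.03 to 1.00 for Cd37 and -0.98 to 0.61 for Blnk, so differences of up to 1 log2 unit in Cd37 or downward in Blnk lie within these intervals. Without background correction Cd79b was -0.25 and Cd37 was 0.18. On chip 1 and chip 2 alone Cd79b was -0.88 and -0.48, Cd37 was 0.20 and 0.78, and Blnk was -0.30 and -0.07. The same 3 RHFD samples stand on both chips, so these chip values are not independent.

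The effect of birth status on chow was the comparison RND over CND, where 0 of 3 genes and 0% of tested probes passed the threshold with limma. Blnk stood at 1.11 (SE 0.33), with a limma unadjusted p of 0.00233 and an adjusted p of 0.233. Cd79b stood at 0.80 (SE 0.23), with an unadjusted p of 0.00226 and an adjusted p of 0.233 (limma). Cd37 stood at 0.65 (SE 0.21), with an unadjusted p of 0.00489 and an adjusted p of 0.263 (limma). These are 3 of 3 at an unadjusted p under 0.05, a level that 12.1% of tested probes reached. All 6 RND samples stood above all CND samples for Blnk, a separation that 0.392% of tested probes showed, and 5 of 6 did so for Cd79b and for Cd37. On chip 1 and chip 2 the differences were 0.65 and 1.57 for Blnk, 1.03 and 0.57 for Cd79b and 1.07 and 0.23 for Cd37. This comparison shares the CND samples with the diet comparison in control-born rats, so low values of CND enter both.

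The effect of birth status on the high-fat diet was RHFD over CHFD, in which 0 of 3 genes passed the threshold and 0.00981% of tested probes did. Cd79b stood at -0.69 (SE 0.29, unadjusted p = 0.0237, adjusted p = 1, limma), with 2 of 3 RHFD samples below all CHFD samples, and 1.04% of tested probes had an unadjusted p under 0.05. Cd37 and Blnk stood at 0.10 (SE 0.26) and 0.15 (SE 0.40), with 95% intervals of -0.43 to 0.64 and -0.67 to 0.97.

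The interaction asked whether the diet difference itself differed between growth-retarded and control-born rats. For Cd79b the diet difference was -0.68 in growth-retarded rats and 0.81 in control-born rats, an interaction of -1.49 on the log2 scale (SE 0.37, unadjusted p = 0.000477, limma). By p-value Cd79b ranked 4 of 10193 probes. That rank is no independent evidence, because the members were proposed with results of these arrays in view. The adjusted p of Cd79b was 0.972 (limma). In this comparison 0% of tested probes passed the threshold and 4.05% had an unadjusted p under 0.05. The Cd79b value was -1.75 on chip 1 and -1.41 on chip 2, and -0.54 without background correction. Blnk stood at -0.96 (SE 0.51, unadjusted p = 0.0747) and Cd37 at -0.55 (SE 0.33, unadjusted p = 0.112), both with adjusted p = 0.972. On chip 1 and chip 2 alone Blnk was -0.37 and -1.43, and Cd37 was -1.003 and -0.03. Without background correction Cd37 was -0.20, and without CHFD 8B it was -0.35. The RHFD values behind these terms come from 3 samples on 6 arrays. These 3 samples and CHFD 10B stand on both chips, so the chip 1 and chip 2 values share samples and are not independent.

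**Figure D3:**
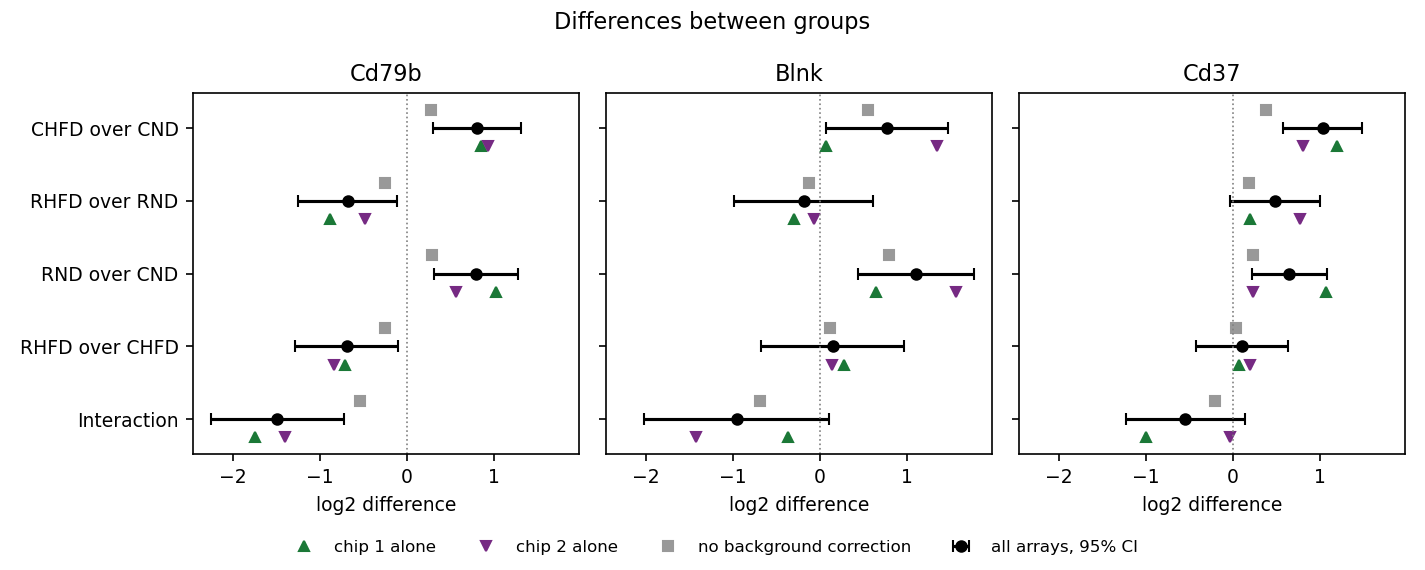
Log2 differences (horizontal axis) of Cd79b, Blnk and Cd37 in 5 comparisons; black points with bars are estimates over all arrays with 95% intervals, triangles are chip 1 and chip 2 alone, and grey squares are values without background correction. Interaction is (RHFD - RND) - (CHFD - CND), and the Cd79b interaction lies at -1.49, with -1.75 and -1.41 on the separate chips. The RHFD samples and CHFD 10B stand on both chips, so the values of the separate chips are not independent.

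Across the 20 samples, with chip and group means removed, no correlation between the 3 genes passed a test. Cd37 and Cd79b had Pearson r = 0.27 (Spearman rho = 0.18), Blnk and Cd79b r = 0.21 (rho = 0.20), and Blnk and Cd37 r = -0.22 (rho = -0.16). Two-sided permutation tests within groups gave p = 0.342, 0.368 and 0.394 for r and p = 0.49, 0.407 and 0.537 for rho. Adjusted over these 3 relations, p was 0.394 for each r and 0.537 for each rho. Without the 2 samples farthest from the median of the first-named gene (of Blnk or Cd37), r was 0.11, 0.07 and -0.24. A p that misses the threshold with this number of samples does not show that the genes vary independently.

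Each gene had other transcripts nearest to it, ranked by Pearson r of log2 levels over the 20 samples with chip removed and group differences kept, so that part of each r comes from the groups. Nearest to Cd37 were Map4k1 (a kinase of blood cells, r = 0.91), Itgb7 (the gut-homing integrin chain, r = 0.89), Ptprcap (a CD45-associated protein, r = 0.88), Coro1a (a leukocyte actin regulator, r = 0.88) and Cd7 (a surface protein of T and NK cells, r = 0.86). With group means removed as well, those values were 0.76, 0.79, 0.69, 0.69 and 0.66. Nearest to Cd79b were Slc35c2 (a Golgi sugar transporter, r = 0.85, and 0.85 within groups), Dnajc5 (0.82), Ramac (0.78), Tbc1d17 (0.76) and Ltb (lymphotoxin beta, a cytokine needed for lymphoid follicles, 0.75, and 0.68 within groups). Nearest to Blnk were Dmac2 (0.80), Clcn7 (a lysosomal chloride transporter, 0.79), Dnal4 (0.68), Btnl8 (0.68) and Cbr3 (0.66). The Cd37 list holds leukocyte genes, and Ltb is the lymphoid gene among the 5 nearest to Cd79b. The 5 nearest to Blnk are on none of the leukocyte lists described below. All were picked as the highest among 7483 tested probes with a single symbol, so their r values, also within groups, tend high by that choice.

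The other genes of B cell receptor signalling were described from a list of 32, of which 28 are on the array and 12 were tested. For this and the other lists, rose and fell mean past the threshold, an adjusted p under 0.05. In CHFD over CND, 3 of 12 rose and 0 fell: Plcg2, the phospholipase that Blnk recruits, by 1.18 (limma adjusted p = 0.036), Ptpn6, the phosphatase that dampens receptor signals, by 0.66 (0.0253), and Prkcb, the kinase that links the receptor to NF-kB (0.0375). Prkcb was detected on 6 of 6 CHFD arrays and 0 of 6 CND arrays, so only a bound can be given: it was at least 1.40-fold higher in CHFD, with CND raised to the dimmest detected probe of each array. In RHFD over RND, 2 of 12 rose and 0 fell, Plcg2 by 1.59 (0.0164) and Ptpn6 by 0.76 (0.0343). Syk, the kinase upstream of Blnk, stood at 0.42 (adjusted p = 0.577) and 0.08 (0.964) in these comparisons. The list medians were 0.26 and 0.17, against 0.00 over all tested probes in each. Of all tested probes, 1.3% passed the threshold in CHFD over CND and 0.883% in RHFD over RND. In RND over CND, in RHFD over CHFD and in the interaction, 0 of 12 passed, where 0, 1 and 0 of the 10193 tested probes did. Plcg2, Ptpn6 and Prkcb are also made by other leukocytes.

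Genes that would mark B cells or their follicles were set against the same threshold. Of all tested probes, 1.3% passed it in CHFD over CND and 0.883% in RHFD over RND. Of 5 tested B cell identity genes, 0 passed in either diet comparison, with medians of 0.10 in CHFD over CND and -0.08 in RHFD over RND. Among them Cd83, an activation marker of B and dendritic cells, stood at 0.68 in CHFD over CND (adjusted p = 0.214), -0.20 in RHFD over RND (0.885) and -0.88 for the interaction (unadjusted p = 0.0233, adjusted p = 0.972). Of the other identity genes, Ms4a1 and Blk were detected on 6 of 24 arrays each and Ebf1 on 11, so they were read near background. Of 3 plasma cell genes, 0 passed, with medians of -0.09 and -0.06. Of 10 follicle and germinal centre genes, 1 rose in CHFD over CND, Ccr6, the receptor of the follicle chemokine Ccl20, by 0.99 (adjusted p = 0.0185), and 0 passed in RHFD over RND. Ltb stood at 1.00 in CHFD over CND (adjusted p = 0.0758), 0.01 in RHFD over RND (0.994) and -0.99 for the interaction (unadjusted p = 0.0272). In RND over CND no tested probe passed the threshold, so none of these 3 lists could have a gene past it. At an unadjusted p under 0.05, 3 of 10 follicle, 1 of 5 identity and 0 of 3 plasma cell genes were higher in RND, where 12.1% of tested probes reached that level. Among them Ccr6 stood at 0.78 (limma unadjusted p = 0.000947) and Ltb at 0.66 (0.0212).

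Markers of other leukocytes moved with diet as well. In CHFD over CND, 9 of 12 tested pan-leukocyte genes, 7 of 15 T and NK genes and 5 of 9 macrophage and dendritic genes rose. So did 4 of 7 MHC class II genes, and 0 genes of these lists fell past the threshold. The medians were 1.18, 1.23, 1.27 and 1.65 in that order, and 1.3% of all tested probes passed the threshold in this comparison. Not all MHC class II genes went up, since 5 of 7 differences were positive. RT1-DMa stood at -0.76 (limma unadjusted p = 0.00133, adjusted p = 0.0747) and RT1-DOa at -0.15. Of the macrophage genes that rose, Tyrobp was detected on 0 of 6 CND arrays and was at least 1.26-fold higher in CHFD. In RHFD over RND, 1 of 12, 1 of 15, 3 of 9 and 0 of 7 rose, where 0.883% of tested probes passed the threshold. The medians there were 0.95, 1.10, 1.23 and 0.64. There 5 of 7 MHC class II differences were positive, and RT1-DMa stood at -0.50 (limma unadjusted p = 0.045). The T and NK mean ran from 6.92 to 7.40 in RHFD and from 5.36 to 6.99 in RND, and from 6.31 to 8.42 in CHFD and from 5.09 to 6.09 in CND. The pan-leukocyte mean ran from 7.47 to 8.09 in RHFD and from 6.57 to 7.52 in RND, and from 7.40 to 8.54 in CHFD and from 6.16 to 7.07 in CND. The MHC class II mean ran from 7.80 to 8.48 in RHFD and from 7.03 to 8.32 in RND, and from 7.79 to 8.46 in CHFD and from 6.42 to 7.43 in CND. Of 11 epithelial genes, 0 passed, with medians of 0.05 and 0.08 in the diet comparisons. The part of these cells in the Cd37, Cd79b and Blnk values was not tested.

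MHC class II, which B cells, dendritic cells and macrophages use to present antigen, had list medians of 1.65 in CHFD over CND, 0.64 in RHFD over RND, 1.04 in RND over CND, 0.13 in RHFD over CHFD and -1.02 for the interaction. Its signs were those of Cd79b in 3 of these and opposite in RHFD over RND and RHFD over CHFD. In RND over CND and for the interaction, 5 of 7 and 3 of 7 genes had an unadjusted p under 0.05 (limma), against 12.1% and 4.05% of tested probes. No tested probe passed the threshold in either, and so 0 of 7 did. The T and NK genes had a median interaction of -0.16. The difference between these lists was not tested.

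**Figure D4:**
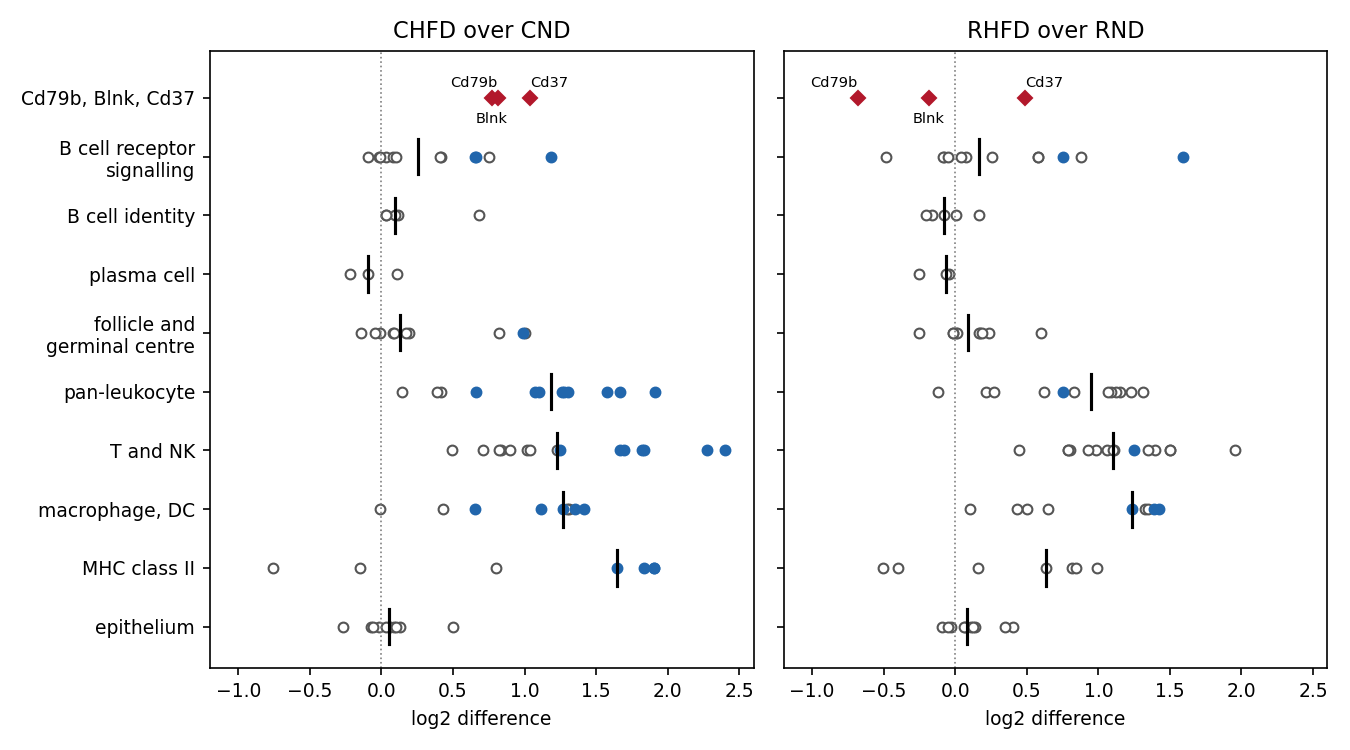
Log2 differences (horizontal axis) in CHFD over CND (left) and RHFD over RND (right) for Cd79b, Blnk and Cd37 (red diamonds) and for the tested genes of 9 lists; filled blue circles passed the threshold, open circles did not, and vertical bars are list medians; Prkcb and Tyrobp, below background in CND, are drawn at their fitted values. Pan-leukocyte, T and NK, macrophage and MHC class II medians lie at 1.18 to 1.65 on the left, while B cell identity, plasma cell and epithelial medians lie near 0. The B cell identity medians are values of probes near background and cannot show whether B cells changed.

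Within groups, the 3 genes were set against the mean of the T and NK, macrophage and dendritic, and MHC class II lists, 9 relations in all, chosen after values had been seen. Cd37 had r = 0.61 (rho = 0.60) with the T and NK mean over the 20 samples (permutation p = 0.016, adjusted p = 0.133), and 0.53 without RND 17B and CHFD 8B. With the MHC class II mean Cd37 had r = 0.50 (rho = 0.48, permutation p = 0.0482, adjusted p = 0.139). Cd79b had r = 0.54 (rho = 0.44) with the MHC class II mean (permutation p = 0.0295, adjusted p = 0.133) and r = -0.24 with the T and NK mean. Blnk had r = -0.48 (rho = -0.34) with the T and NK mean (permutation p = 0.0616, adjusted p = 0.139). None of the 9 relations passed after adjustment, the lowest adjusted p being 0.133 for r and 0.113 for rho.

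**Figure D5:**
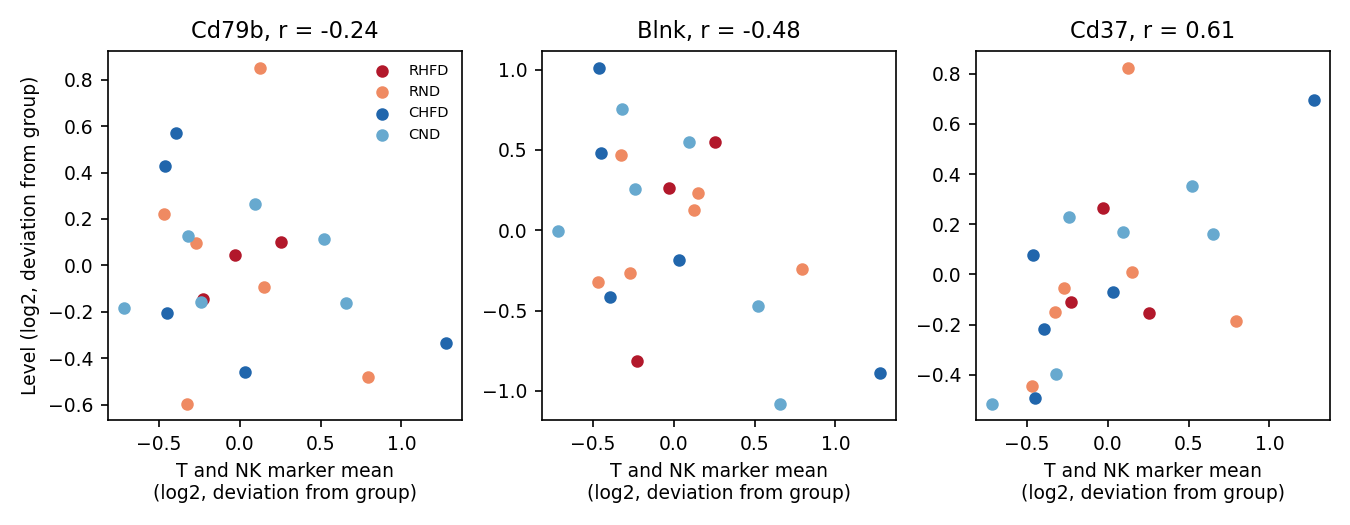
Deviation of each sample from its group mean, with chip removed (log2), for Cd79b, Blnk and Cd37 (vertical axes) against the mean of 15 T and NK genes (horizontal axis), with 20 samples coloured by group. The correlations are -0.24 for Cd79b, -0.48 for Blnk and 0.61 for Cd37, and none passed after adjustment over 9 relations.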

How the data were processed

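The authors deposited a table of non-normalized probe intensities with a detection p-value per probe and array, per the file headers, and a series matrix of intensities normalized across arrays. The arrays were read with GenomeStudio, per the submitters' processing notes; its version is not given in the sources used here. Here the intensities were background corrected and quantile normalized to log2 values with neqc (limma 3.58.1, R 4.3.3, statmod 1.5.0; offset 16). The tests covered the 10193 probes that 6 or more arrays detected (p-value under 0.05). The limma model held the 4 groups and the chip, with arrays sharing a title number as a random block (correlation 0.812), and Benjamini-Hochberg adjustment over all tested probes. The array number limits the precision. Correlations used 100000 permutations within groups (Python 3.11.15, NumPy 2.4.6, SciPy 1.17.1); the code was tested on simulated data. Members and gene lists were chosen with earlier results of these data known. Beside the members, genes past the threshold, at most 4 per list and comparison, and the 5 genes nearest each member are named. Syk, Cd83, Ltb, Tyrobp, Ebf1, Blk, RT1-DMa, RT1-DOa, Cd53 and the genes of the detection check were added after their values were seen. Alternatives changed the background correction, normalization, filter, chip, block, samples in the fit and each sample.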

Additional observations from a re-analysis of the deposited data

How the results depend on the processing

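The number of the 3 genes past the threshold in CHFD over CND was 1, and it was 0 without background correction, on chip 1 alone and on chip 2 alone, and 0 to 2 when single samples were left out. In the other 4 comparisons that number stayed at 0 under every alternative run. The median over the 3 genes in CHFD over CND, 0.81, was 0.39 without background correction and 0.39 with the series matrix values, neither of which subtracts background, and in RND over CND, 0.80, it was 0.29 with each. For the interaction, -0.96, it was -0.54 with each of these and -1.41 on chip 2 alone. Leaving out single samples gave medians of 0.72 to 0.96 in CHFD over CND, -0.46 to 0.22 in RHFD over RND, 0.62 to 0.93 in RND over CND, -0.13 to 0.16 in RHFD over CHFD and -1.23 to -0.55 for the interaction. Signs reversed for Blnk in RHFD over RND (0.22 without RHFD 21B), for Blnk in RHFD over CHFD (-0.02 without CHFD 8B and -0.13 without RHFD 3A) and for Cd37 in RHFD over CHFD (-0.029 without RHFD 25B). Over all single samples left out, RHFD over CHFD ran from -0.13 to 0.55 for Blnk and from -0.029 to 0.30 for Cd37. Other causes were not tested. Probes past the threshold numbered 132 in CHFD over CND, with 5 to 145 under other settings and 80 to 198 when single samples were left out. Of the 132, 98 were higher and 34 lower in CHFD, and with median scaling 38 of 75 were higher and 37 lower, with Cd37 at 0.93 (adjusted p = 0.0401). In RHFD over RND they numbered 90, with 12 to 151 and 8 to 110. In RND over CND they numbered 0, with 0 to 3 in each case. The fit of CHFD and CND alone used the block correlation of all arrays, since its own could not be estimated. Without background correction, RND over CND was 0.24 for Cd37 and 0.29 for Cd79b, and RHFD over CHFD was 0.03 and -0.25. Signals near background limit the Cd37, Cd79b and Prkcb values. No paired analysis was possible because the groups share no title number.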

Other observations

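Cd37 is a tetraspanin, and 15 other members of that family were tested. In CHFD over CND, 0 of 15 passed the threshold, where 1.3% of tested probes did. The median log2 difference of the 15 was 0.00 (limma), with 7 of 15 positive. At an unadjusted p under 0.05 stood 1 of 15, where 10.8% of tested probes reached that level. That gene was Cd53, also on the pan-leukocyte list, at 0.42 (limma unadjusted p = 0.0325, adjusted p = 0.396), with the sign of Cd37. Cd53 was detected on 3 CHFD arrays and 0 CND arrays, so it was read near background. The family also holds Tspan8, a gene of the epithelial list, so the family median does not describe leukocyte tetraspanins. In RND over CND the family median was 0.17, with 12 of 15 positive and 0 of 15 past the threshold (limma), which no tested probe passed there.

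Of 5 tested mast cell genes, 1 rose in CHFD over CND, Mcpt10, a mast cell protease, by 1.37 (limma adjusted p = 0.00901), and 0 passed in RHFD over RND, where the list median was 0.66 against 0.43 in CHFD over CND. Of all tested probes, 1.3% passed in CHFD over CND and 0.883% in RHFD over RND.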
